A study of Homo sapiens with 6 samples.

Results

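The genes described are 9 that act in antigen presentation by MHC class I, measured in MDA-MB-231, a line of triple-negative breast cancer (TNBC), after knockdown of the long noncoding RNA MIR100HG. They were chosen by name and found by their Ensembl identifiers: HLA-B, HLA-C, HLA-E, HLA-F, B2M, TAP1, TAP2, TAPBP and NLRC5. They are 9 of the 27745 genes in the count table, and 9 of 9 were among the 15372 genes that passed the filter on low counts. MHC class I molecules show peptides from inside the cell to CD8+ T cells. The peptides are cut by proteasomes, pumped into the endoplasmic reticulum by the TAP1/TAP2 transporter and loaded, with the help of tapasin (TAPBP), onto a heavy chain paired with the light chain β2-microglobulin (B2M). NLRC5 is a transactivator of these genes, which also respond to interferons and NF-κB, and tumour cells can lower class I on their surface and so avoid T cells.

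RNA-seq was performed on 6 libraries in 3 groups of 2 biological replicates. The cells were infected with pLKO.1 lentivirus that carried sh-TRC, the control hairpin, or one of the hairpins sh-MIR100HG-1 and sh-MIR100HG-2. The sh-TRC libraries are called CTR1 and CTR2, those of sh-MIR100HG-1 are KD1-1 and KD1-2, and those of sh-MIR100HG-2 are KD2-1 and KD2-2. Each group therefore carried an shRNA vector and none was uninfected, and the p-values measure only the spread between replicates of one cell line.

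Total counts ranged from 43804736 to 64588388 per library (median 51553219.5), and values are given as CPM, counts scaled to library size with TMM factors. MIR100HG was at 41.9 CPM in CTR1 and 58.5 in CTR2, against 15.2, 13.2, 16.6 and 10.4 CPM in KD1-1, KD1-2, KD2-1 and KD2-2, so the targeted RNA was lower in each of the 4 knockdown libraries, as labelled. The summed level of VIM, CD44 and EGFR, markers of this mesenchymal-like line, was between 2656 and 3337 CPM, while PGR was removed by the filter and ESR1 did not exceed 2.79 CPM. ERBB2 was between 71.6 and 116 CPM. Of the leukocyte markers, PTPRC was between 0.12 and 0.689 CPM, ITGAM between 0.0882 and 0.298 CPM, and CD14 reached 4.32 CPM in CTR2.

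Per kb of the summed exon length of the gene, the heavy chain HLA-B had the highest level of the 9 genes. Its level was 357 ± 224 CPM per kb of exon (mean ± SD over the 6 libraries, n = 6), followed by HLA-C at 237 ± 108, B2M at 192 ± 53.5, HLA-E at 147 ± 52.4, TAPBP at 84.1 ± 24.7, TAP1 at 44.9 ± 18.4, TAP2 at 10.4 ± 2.48, HLA-F at 7.65 ± 5.51 and NLRC5 at 4.77 ± 0.998 CPM per kb. Among all genes tested these levels placed HLA-B at rank 60 and NLRC5 at rank 7202. The places depend on the annotated exon length, 6089 bases for B2M and 3012 for HLA-B. Without division by length B2M had the highest mean, 1172 CPM against 1076 CPM for HLA-B. By CPM per kb HLA-B stood at place 1 in 6 of 6 libraries, HLA-E at 4, TAPBP at 5 and TAP1 at 6. HLA-C and B2M changed places: HLA-C was above B2M in CTR2, KD2-1 and KD2-2 and below it in CTR1, KD1-1 and KD1-2. HLA-F and NLRC5 did so in the same libraries, with HLA-F above NLRC5 in CTR2, KD2-1 and KD2-2. HLA-F exceeded TAP2 in KD2-1 alone, at 16.1 against 13.8 CPM per kb. The 9 genes together took between 0.249% and 0.624% of all counts in a library.

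The heavy chains form the peptide-binding groove. HLA-B and HLA-C, 2 of the classical heavy chains that present peptides to T cells, lie on the minus strand of chromosome 6 (GRCh37), HLA-B from 31321649 to 31324965 and HLA-C from 31236526 to 31239907. HLA-B was measured at 589.9 CPM (CTR1) and 1866 (CTR2) with sh-TRC, 540.2 (KD1-1) and 483 (KD1-2) with sh-MIR100HG-1, and 1955 (KD2-1) and 1024 (KD2-2) with sh-MIR100HG-2. HLA-C was at 392.5 CPM (CTR1) and 924 (CTR2) with sh-TRC, 363 (KD1-1) and 339 (KD1-2) with sh-MIR100HG-1, and 901 (KD2-1) and 643 (KD2-2) with sh-MIR100HG-2. For both genes CTR1 was close to the sh-MIR100HG-1 libraries and CTR2 close to KD2-1, so that the controls spanned a 3.16-fold range for HLA-B and a 2.35-fold range for HLA-C. The sh-MIR100HG-1 values lay below both controls for both genes, and the sh-MIR100HG-2 values overlapped the controls.

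HLA-E, a nonclassical heavy chain that binds leader peptides of other class I molecules and is seen by receptors of NK cells, lies on the plus strand of chromosome 6 from 30457244 to 30461982. Its levels were 353 CPM (CTR1) and 619.8 (CTR2) with sh-TRC, 361 (KD1-1) and 264 (KD1-2) with sh-MIR100HG-1, and 643 (KD2-1) and 384 (KD2-2) with sh-MIR100HG-2. KD1-1 was slightly above CTR1, so the groups overlapped in each comparison with control. HLA-F, a further nonclassical heavy chain, lies on the plus strand from 29690552 to 29706305. Its transcript was the one that varied most, at 16.0 CPM (CTR1) and 53.4 (CTR2) with sh-TRC, 14.1 (KD1-1) and 12.02 (KD1-2) with sh-MIR100HG-1, and 69.8 (KD2-1) and 33.98 (KD2-2) with sh-MIR100HG-2. The highest HLA-F level was 5.81 times the lowest, and the controls differed 3.34-fold, whereas KD1-1 and KD1-2 differed 1.17-fold.

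B2M, the invariant light chain, is the only class I subunit gene of the 9 that lies outside the MHC, on the plus strand of chromosome 15 from 45003675 to 45011075. It was at 1011 CPM (CTR1) and 1495 (CTR2) with sh-TRC, 893 (KD1-1) and 941 (KD1-2) with sh-MIR100HG-1, and 1669 (KD2-1) and 1023 (KD2-2) with sh-MIR100HG-2. Its range was narrower than that of the HLA genes, the highest library being 1.87 times the lowest, and CTR1 and KD2-2 were nearly level.

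TAP1 and TAP2 encode the chains of the peptide transporter and lie on the minus strand of chromosome 6, TAP1 from 32812986 to 32821755 and TAP2 from 32789610 to 32806557. TAP1 was at 151 CPM (CTR1) and 278 (CTR2) with sh-TRC, 137 (KD1-1) and 127 (KD1-2) with sh-MIR100HG-1, and 333 (KD2-1) and 209.8 (KD2-2) with sh-MIR100HG-2. TAP2 was at 64.7 CPM (CTR1) and 83.1 (CTR2) with sh-TRC, 60.9 (KD1-1) and 49.1 (KD1-2) with sh-MIR100HG-1, and 88.3 (KD2-1) and 53.7 (KD2-2) with sh-MIR100HG-2. TAP1 had the same library order as HLA-B, while for TAP2 KD2-2 fell between KD1-2 and KD1-1, which was the single exception among the 9 to CTR1, KD1-1 and KD1-2 holding the lowest places. Of the 4578 bases of TAP1 exons, 456 overlap PSMB8-AS1 on the opposite strand, and 2064 of the 6390 bases of TAP2 exons (32.3%) overlap another annotated gene on the same strand, so reads there could be assigned to either gene or to neither.

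TAPBP encodes tapasin, which bridges the transporter and the empty heavy chain, and lies on the minus strand of chromosome 6 from 33267471 to 33282164. Its levels were 311 CPM (CTR1) and 505 (CTR2) with sh-TRC, 324 (KD1-1) and 317 (KD1-2) with sh-MIR100HG-1, and 605 (KD2-1) and 489.97 (KD2-2) with sh-MIR100HG-2. CTR1 was the lowest library for TAPBP, below both sh-MIR100HG-1 libraries. NLRC5, which acts at class I promoters, lies on the plus strand of chromosome 16 from 57023397 to 57117443. It was at 50.5 CPM (CTR1) and 72.9 (CTR2) with sh-TRC, 48.7 (KD1-1) and 46.9 (KD1-2) with sh-MIR100HG-1, and 74.6 (KD2-1) and 61.1 (KD2-2) with sh-MIR100HG-2. It had the narrowest range of the 9 genes, 1.59-fold, in the same library order as HLA-B.

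**Figure D1:**
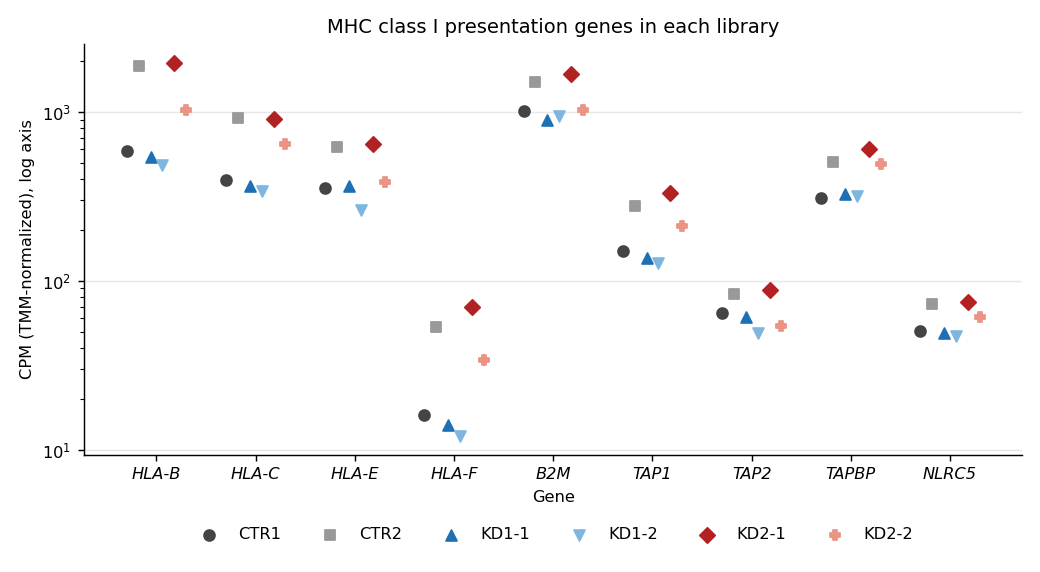
TMM-scaled CPM of the 9 class I presentation genes (x axis) on a log axis, with 1 point per library and symbols for the 6 libraries. CTR2 (grey square) and KD2-1 (dark red diamond) are the 2 highest points for each gene, and the control points are furthest apart for HLA-F and HLA-B.

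The 9 genes thus had similar library orders. For 8 of 9, TAP2 excepted, both sh-MIR100HG-2 libraries were above both sh-MIR100HG-1 libraries (20.6% of all genes). In these 8 the controls were split, with CTR1 below KD2-2 and CTR2 above it. KD2-1 and CTR2 were the 2 highest libraries for 9 of 9 genes, a pattern found in 9.94% of all genes tested. CTR1, KD1-1 and KD1-2 were the 3 lowest for 8 of 9 (12.5% of all genes), TAP2 being the exception, and both held for 8 of 9 (3.65% of all genes). This order was looked for after the values had been seen, and the genes come from the same 6 libraries. Over these libraries the 36 pairs of the 9 genes had Pearson correlations of log2 CPM between 0.66 and 0.999 (n = 6 per pair), with 27 pairs above 0.9. The closest pair was HLA-B and NLRC5 and the least close was TAP2 and TAPBP.

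The difference between the controls was the widest within-group difference for 7 of the 9 genes, B2M and TAP2 being the exceptions. CTR2 minus CTR1 was 1.73 for HLA-F, 1.66 for HLA-B, 1.23 for HLA-C, 0.88 for TAP1, 0.81 for HLA-E, 0.70 for TAPBP, 0.56 for B2M, 0.53 for NLRC5 and 0.36 for TAP2 on the log2 scale. The median of the 9 differences was 0.81, against -0.01 over all genes tested, and 3 of the 9 were above 1, as were 2.30% of all genes. For B2M and TAP2 the widest gap lay within sh-MIR100HG-2, where KD2-2 minus KD2-1 was -0.71 and -0.72. The sh-MIR100HG-1 replicates differed by at most 0.45 in size, for HLA-E. In bulk RNA a lower level could reflect fewer cells with the transcript or less of it per cell, and these cannot be told apart.

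**Figure D2:**
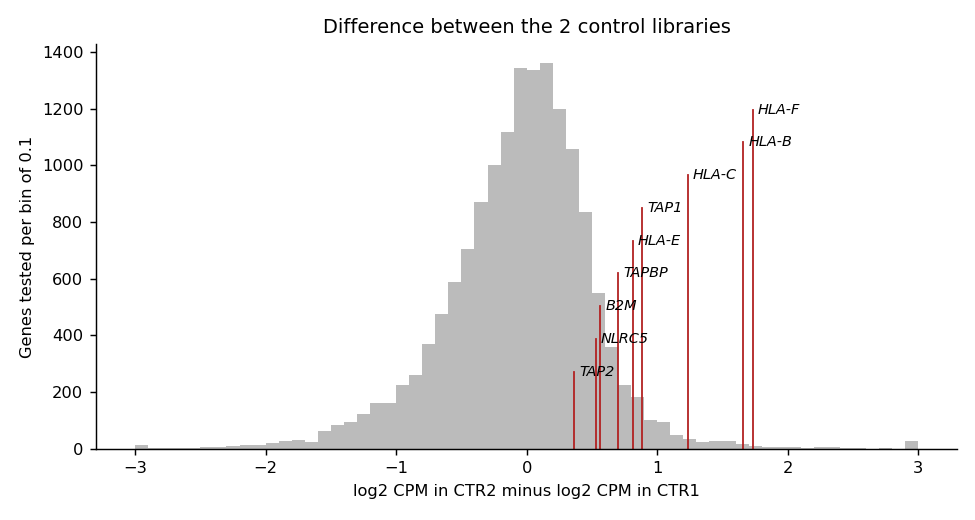
Histogram of log2 CPM in CTR2 minus log2 CPM in CTR1 (x axis) over the 15372 genes tested (y axis, genes per bin), with a red line for each class I gene at its own difference (the height of a line carries no value). The end bins also hold the 37 genes with more extreme differences, and the 9 lines run from 0.36 for TAP2 to 1.73 for HLA-F, to the right of the centre of the histogram.

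Because the 9 genes moved together across libraries, the promoters of those with an entry in the RefSeq table (GRCh38.p14, 250 bases before to 50 after the start) were searched for letters of elements known at class I genes. An entry was found for HLA-B, HLA-C, HLA-F, B2M, TAP1, TAP2 and TAPBP (7 of 9), not for HLA-E and NLRC5. TAP1 had 2 entries, so 8 entries were searched. A gene was counted if any of its entries matched, whereas the shares over the table are of single promoters. The first search was for a pair of GAAA copies in the same direction with a gap of 2 bases, on both strands, the core of the interferon-stimulated response element (ISRE), which is bound by IRF factors. It was present in 5 of the 7, and in 3.57% of the 35116 promoters in the table. The windows below are printed because they show the letters that those 5 genes share, with the matched letters in capitals (adjoining matches are merged) and the strand of the gene in brackets.
HLA-F, chr6:29723270-29723295 (+): ccccagagTTTCTCTTTCtctcccaa
B2M, chr15:44711366-44711395 (+): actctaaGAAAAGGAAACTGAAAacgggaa
TAP1, chr6:32853816-32853845 (-): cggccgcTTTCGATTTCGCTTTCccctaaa
TAP2, chr6:32838780-32838805 (-): ggggaagcGAAAGCGAAAgctgcccg
TAPBP, chr6:33314076-33314105 (-): tttggagGAAAGTGAAAGTGAAAggaggaa
In B2M, TAP1 and TAPBP the capitals are 2 overlapping matches. They begin at -156 from the start in HLA-F, -144 in B2M, -134 in TAP1, -58 in TAP2 and -20 in TAPBP. A match is a description of letters and no evidence of binding in these cells.

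The HLA promoters also share stretches around CCAAT. These letters are the core of the Y box, which NF-Y binds and which is part of the module at which NLRC5 acts. CCAAT was found on either strand in 5 of the 7 genes (HLA-B, HLA-C, HLA-F, B2M and TAP1), and in 34.6% of all promoters in the table. A copy on the other strand, ATTGG, began at -81 in HLA-B, -80 in HLA-C and -82 in HLA-F. The matches of TGACG described below began at -106 in HLA-B and -105 in HLA-C. The windows show another copy, the one nearest the start in each HLA gene, with CCAAT in capitals. It begins at -56 in HLA-B and HLA-C and at -57 in HLA-F. Which copy is the Y box was not tested, so the printed copy is not named as such.
HLA-B, chr6:31357223-31357243 (-): tagagaagCCAATcagcgtcg
HLA-C, chr6:31272136-31272156 (-): tagagaagCCAATcagcgtct
HLA-F, chr6:29723369-29723389 (+): tagagaagCCAATcagtgtcg
TGACG, the core of the X2 box bound by CREB and ATF1, was found in HLA-B, HLA-C, B2M and TAP2 (24.6% of all promoters). GGGGA followed after 1 base by TCCC, a core of the κB site of enhancer A, was found in HLA-B alone (0.424% of all promoters), at the place shown with the palindromic match in capitals.
HLA-B, chr6:31357338-31357364 (-): gcagcgttGGGGATTCCCCactcccct
TTCNNNGAA, the core of the gamma-activated site, was found in TAP1 alone (7.66% of all promoters). It lay in the TAP1 entry that had no ISRE or CCAAT match.

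To ask whether MIR100HG knockdown changed these genes, both shRNAs were first compared together with sh-TRC, using edgeR's quasi-likelihood test across all 15372 genes with Benjamini-Hochberg adjustment. The comparison called 0 of the 9 genes at an adjusted p at or below 0.05 (0% of all genes were called), and 0 of 9 were at an unadjusted p under 0.05 (7.68% of all genes). DESeq2 and edgeR's likelihood ratio test also called 0 of the 9, and 0.937% and 0.709% of all genes. Fitted differences (log2FC) were below 0 for 8 genes and above 0 for TAPBP alone (45.6% of all genes were above 0), with a median of -0.24 against -0.04 over all genes. They ran from -0.49 ± 0.42 (SE) for HLA-B, with a 95% interval of -1.45 to 0.47, to 0.04 ± 0.23 for TAPBP, with an interval of -0.49 to 0.56. For 0 of 9 genes did the 4 knockdown libraries lie all above (8.4% of all genes) or all below (9.08%) both controls. Single-gene exact permutation tests of the 4 knockdown against the 2 control libraries (two-sided, 15 splits) gave p from 0.533 to 0.867, where the smallest possible p is 0.0667. The direction rested on a single control: without CTR2 the median was 0.33, and without CTR1 it was -0.56. The median also moved to -0.44 without KD2-1 and -0.09 without KD2-2.

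With sh-MIR100HG-1 alone, 9 of 9 genes were below sh-TRC (49.7% of all genes were above it). The median log2FC was -0.64, against 0.00 over all genes, and values ran from -1.41 ± 0.54 (SE) for HLA-F to -0.35 ± 0.26 for TAPBP. HLA-F (unadjusted p = 0.0301), HLA-B at -1.26 ± 0.50 (unadjusted p = 0.0346) and HLA-C at -0.91 ± 0.37 (unadjusted p = 0.0402) were under 0.05, as were 6.87% of all genes in either direction and 3.77% that were lower. None passed the adjustment over all genes: 0 of 9 were called (0% of all genes), with adjusted p between 0.714 and 0.795, and DESeq2 and edgeR's likelihood ratio test called 0 of the 9 as well, and 0.497% and 0.221% of all genes. With no filter on low counts 3 of 9, HLA-B, HLA-C and HLA-F, were called, among 227 of 21349 genes (1.06%). For 7 of 9 genes both sh-MIR100HG-1 libraries were below both controls (20.2% of all genes), HLA-E and TAPBP being the exceptions. TAP1 was at -0.70, with a 95% interval of -1.46 to 0.06, and NLRC5 at -0.37, with an interval of -0.93 to 0.20. Without CTR2 the median was -0.18, and without CTR1 it was -0.99. It was -0.76 without KD1-1 and -0.50 without KD1-2.

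With sh-MIR100HG-2 the fitted differences from the same controls were above 0 for 8 of 9 genes (45.8% of all genes), with a median of 0.23 against -0.04 over all genes. The largest was 0.58 ± 0.53 (SE) for HLA-F, with a 95% interval of -0.63 to 1.80, and TAP2 was at -0.06 ± 0.29. No gene was called by edgeR's quasi-likelihood test, by its likelihood ratio test or by DESeq2 (0 of 9 each, and 0%, 0.787% and 1.2% of all genes), 0 of 9 were at an unadjusted p under 0.05 (8.86% of all genes), and for 0 of 9 did the groups not overlap (18.1% of all genes higher and 20.4% lower). TAPBP at 0.42 ± 0.26 had the smallest unadjusted p of the 9, 0.145. The median was 0.82 without CTR2. It was -0.15 without CTR1, -0.03 without KD2-1 and 0.44 without KD2-2.

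The shRNAs were then compared directly, in the same fit, in which the controls help to set the spread. The 9 genes were 9 of 9 higher under sh-MIR100HG-2 than under sh-MIR100HG-1 (49.0% of all genes), with a median log2FC of 0.77 against -0.01 over all genes. HLA-F had the largest difference at 1.99 ± 0.55 (SE, 95% interval 0.73 to 3.25, unadjusted p = 0.0063). HLA-B followed at 1.54 ± 0.50 (unadjusted p = 0.0149), HLA-C at 1.14 ± 0.38, TAP1 at 1.04 ± 0.33 and TAPBP at 0.77 ± 0.27 (unadjusted p = 0.0186). These 5 were at an unadjusted p under 0.05, as were 9.45% of all genes in either direction and 3.34% in the same one. For 8 of 9 genes both sh-MIR100HG-2 libraries were above both sh-MIR100HG-1 libraries (20.6% of all genes), TAP2 being the exception at 0.37 ± 0.29. After adjustment over all genes 0 of 9 were called by edgeR's quasi-likelihood test (0% of all genes), with adjusted p from 0.509 to 0.666. DESeq2's Wald test called HLA-F (adjusted p = 0.0336) among 103 genes in all, and edgeR's likelihood ratio test called 0 of the 9, with an adjusted p of 0.0601 for HLA-F. Over all settings tried the adjusted p of HLA-F ran from 1.66e-08, without the filter on low counts, to 0.764, without KD1-2. With 1 library left out, the median of the 9 genes ran from 0.61 without KD2-1 to 1.04 without KD2-2.

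**Figure D3:**
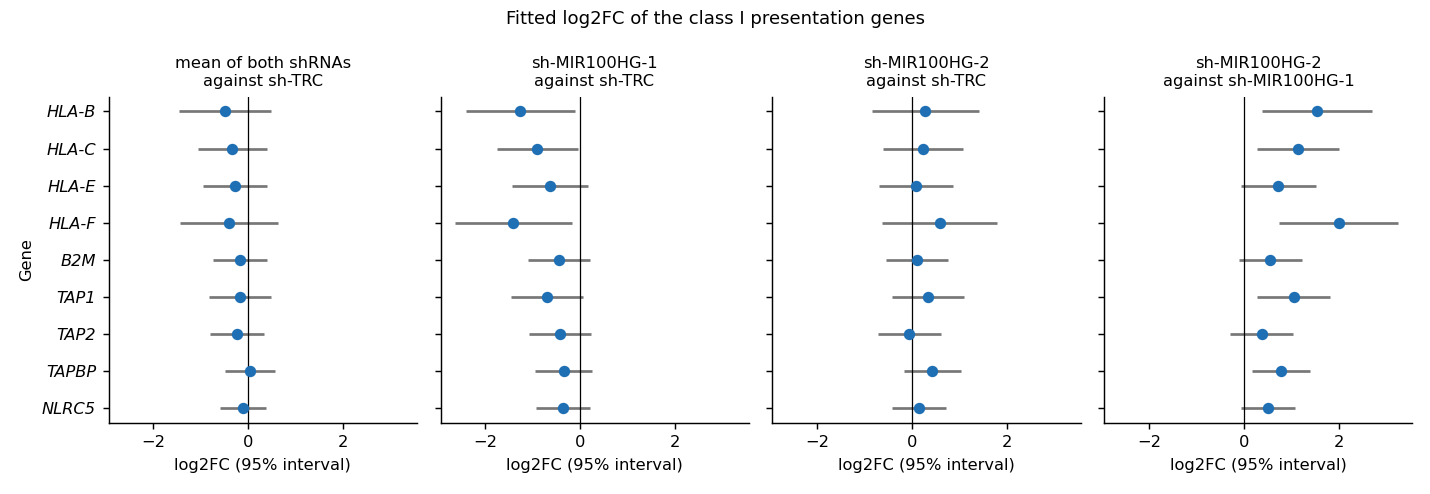
Fitted log2FC (x axis, points) with 95% intervals (bars) of the 9 class I genes (rows) in 4 comparisons (panels). The intervals include 0 for each gene in the panels of both shRNAs and of sh-MIR100HG-2 against sh-TRC, exclude 0 for 3 genes under sh-MIR100HG-1, and exclude 0 for 5 genes between the shRNAs; intervals are not adjusted over genes.

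Ratios within a library do not depend on its scaling and show which subunits moved more. B2M over the sum of HLA-B and HLA-C, the light chain against these heavy chains, was 1.03 (CTR1) and 0.536 (CTR2) with sh-TRC, 0.989 (KD1-1) and 1.15 (KD1-2) with sh-MIR100HG-1, and 0.585 (KD2-1) and 0.614 (KD2-2) with sh-MIR100HG-2. The ratio was near 1 in 3 libraries and near 0.6 in the 3 others, and CTR1 and CTR2 were on different sides. Knockdown minus control was 0.10 on the log2 scale (exact permutation test, two-sided, p = 0.667), with means of -0.33 ± 0.49 (SD, n = 4) and -0.43 ± 0.67 (SD, n = 2); it was -0.37 without CTR2, -0.07 without KD1-2 and 0.57 without CTR1.

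TAP1 over TAP2, the ratio between the transporter chains, was 2.33 (CTR1) and 3.34 (CTR2) with sh-TRC, 2.24 (KD1-1) and 2.58 (KD1-2) with sh-MIR100HG-1, and 3.77 (KD2-1) and 3.91 (KD2-2) with sh-MIR100HG-2. Both sh-MIR100HG-2 libraries were highest and the control pair enclosed KD1-2. Knockdown minus control was 0.12 on the log2 scale (exact permutation test, two-sided, p = 0.6), and -0.14 without CTR1 and 0.39 without CTR2. Among the 4 heavy chain genes the share of CPM that belonged to HLA-B was 43.7% (CTR1) and 53.9% (CTR2) with sh-TRC, 42.2% (KD1-1) and 44.03% (KD1-2) with sh-MIR100HG-1, and 54.8% (KD2-1) and 49.1% (KD2-2) with sh-MIR100HG-2. The share of HLA-E was between 24.03% and 28.3% in CTR1 and both sh-MIR100HG-1 libraries and between 17.9% and 18.4% in the other 3. HLA genes are near-identical over long stretches and vary between people, and how reads matching more than one of them were counted is not given in the sources used here, so the split between them is uncertain.

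**Figure D4:**
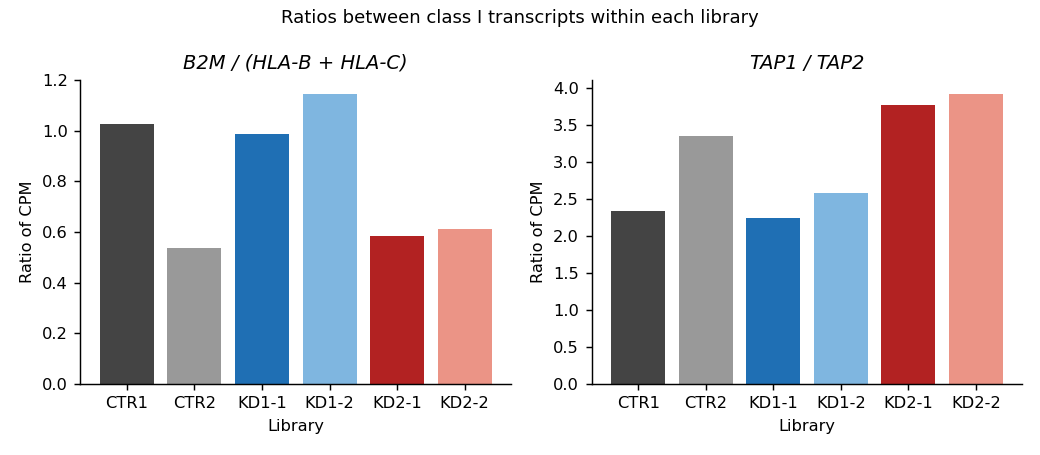
Ratio of CPM within each library (bars from 0, 1 bar per library) for B2M over HLA-B plus HLA-C (left) and TAP1 over TAP2 (right). CTR1 and the sh-MIR100HG-1 libraries are at 0.989 to 1.15 on the left and 2.24 to 2.58 on the right, and CTR2 and the sh-MIR100HG-2 libraries are at 0.536 to 0.614 and 3.34 to 3.91.

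The other genes of the pathway were taken from a list of 60, of which 59 were tested (CD1D was not). In the comparison of both shRNAs with sh-TRC 0 of 59 were called, and 1 was higher and 8 lower at an unadjusted p under 0.05 (7.68% of all genes in either direction). Under sh-MIR100HG-1 0 of 59 were called, with 0 higher and 20 lower at that level (3.77% of all genes lower), and under sh-MIR100HG-2 0 were called, with 1 higher and 3 lower (8.86% in either direction). Between the shRNAs 0 were called, with 18 higher and 1 lower under sh-MIR100HG-2 (3.34% of all genes higher). DESeq2 and the likelihood ratio test each called 2 of 59 under sh-MIR100HG-1 (0.497% and 0.221% of all genes) and 3 of 59 between the shRNAs (0.711% and 0.592%). KD2-1 and CTR2 were the 2 highest libraries for 24 of the 59 (9.94% of all genes). The values that follow are fitted log2FC ± SE, and none passed the adjustment over all genes.

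The genes of peptide supply shared the highest libraries of the 9. The immunoproteasome subunits PSMB8, PSMB9 and PSMB10 and the activator subunits PSME1 and PSME2, which raise the yield of peptides fit for class I, had KD2-1 and CTR2 as highest libraries in 5 of 5. PSMB8 was at 49.7 CPM (CTR1) and 99.3 (CTR2) with sh-TRC, 41.3 (KD1-1) and 36.3 (KD1-2) with sh-MIR100HG-1, and 95.2 (KD2-1) and 63.8 (KD2-2) with sh-MIR100HG-2, the order of HLA-C. Between the shRNAs PSMB8 was at 1.04 ± 0.35, PSMB9 at 0.96 ± 0.35, PSME1 at 0.68 ± 0.27 and PSME2 at 0.51 ± 0.22, and these 4 were at an unadjusted p under 0.05.

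FCGRT, the class I-like heavy chain of the neonatal Fc receptor, went another way: both controls, at 41.3 and 54.8 CPM, were above the 4 knockdown libraries, at 26.8, 22.0, 30.9 and 23.7 CPM. FCGRT was at -0.90 ± 0.22 for both shRNAs (unadjusted p = 0.00309, adjusted p = 0.447), -0.98 ± 0.26 with sh-MIR100HG-1 alone and -0.81 ± 0.26 with sh-MIR100HG-2 alone. The peptide editor TAPBPL, a relative of tapasin, was at -0.73 ± 0.27 under sh-MIR100HG-1 and 0.68 ± 0.27 between the shRNAs, while the chaperones CALR, CANX and PDIA3 and the trimming enzymes ERAP1 and ERAP2 had an unadjusted p of at least 0.05 in each comparison.

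Among the regulators of transcription, 3 of 13 had KD2-1 and CTR2 as highest libraries. IRF2, a factor that binds the ISRE, was at 0.53 ± 0.22 for both shRNAs and 0.77 ± 0.25 for sh-MIR100HG-2, the 2 values of this list above control at an unadjusted p under 0.05. RFXANK, a subunit of the RFX complex that binds the X1 box, was at 0.71 ± 0.26 between the shRNAs. CIITA, the class II transactivator, had the largest difference of this list for both shRNAs, -0.64 ± 0.38, which was not at that level, with 17.5 and 23.0 CPM in the controls and 13.4, 8.50, 22.3 and 8.31 CPM in KD1-1, KD1-2, KD2-1 and KD2-2. Of the interferon receptors and their signalling chain, 2 of 10 had KD2-1 and CTR2 as highest libraries. STAT2 was at -0.54 ± 0.23 for both shRNAs and -0.63 ± 0.27 under sh-MIR100HG-1. The kinase JAK2 ran the other way from the class I genes, at -0.88 ± 0.33 under sh-MIR100HG-2 and -0.87 ± 0.33 between the shRNAs.

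Interferon-stimulated genes were divided in their library order. For 5 of 14, namely MX1, OAS2, OAS3, IFI6 and BST2, KD2-1 and CTR2 were highest, as for the class I genes. MX1, an antiviral GTPase, was at 98.1 CPM (CTR1) and 363 (CTR2) with sh-TRC, 43.0 (KD1-1) and 47.5 (KD1-2) with sh-MIR100HG-1, and 303 (KD2-1) and 155 (KD2-2) with sh-MIR100HG-2. Its fitted differences were -2.35 ± 0.57 under sh-MIR100HG-1 and 2.34 ± 0.57 between the shRNAs. IFI6 was at -2.46 under sh-MIR100HG-1, OAS1 at -2.10, OAS2 at -1.43, OAS3 at -1.26, ISG15 at -1.09, IFIH1 at -0.98 and BST2 at -0.91, and with MX1 these are the 8 of 14 at an unadjusted p under 0.05 (3.77% of all genes lower). For both shRNAs together 4 of them were at that level, IFI6 at -1.21, MX1 at -1.18, ISG15 at -0.87 and IFIH1 at -0.86, and with sh-MIR100HG-2 alone ISG15 was, at -0.64. ISG15 and IFIH1 lay below both controls in each of the 4 knockdown libraries, as did 9.08% of all genes and 0 of the 9 class I genes. IFIT1, IFIT2 and IFIT3, which act against viral RNA, were instead highest in CTR1, at 794, 983 and 1332 CPM, against 469, 534 and 1010 CPM in CTR2.

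The MHC class II genes act in the presentation of peptides to CD4+ T cells. Under sh-MIR100HG-1 6 of 6 were below control at an unadjusted p under 0.05 (3.77% of all genes were so and lower), between -1.28 for HLA-DPB1 and -0.63 for HLA-DMA, and KD2-1 and CTR2 were highest for 5 of 6. CD74, the invariant chain, was at 233 CPM (CTR1) and 552 (CTR2) with sh-TRC, 208 (KD1-1) and 202 (KD1-2) with sh-MIR100HG-1, and 541 (KD2-1) and 423 (KD2-2) with sh-MIR100HG-2. HLA-DMB had the largest difference for both shRNAs, -0.78 ± 0.37, which was not at an unadjusted p under 0.05, whereas HLA-DPB1 at -0.74 and HLA-DMA at -0.52 were.

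**Figure D5:**
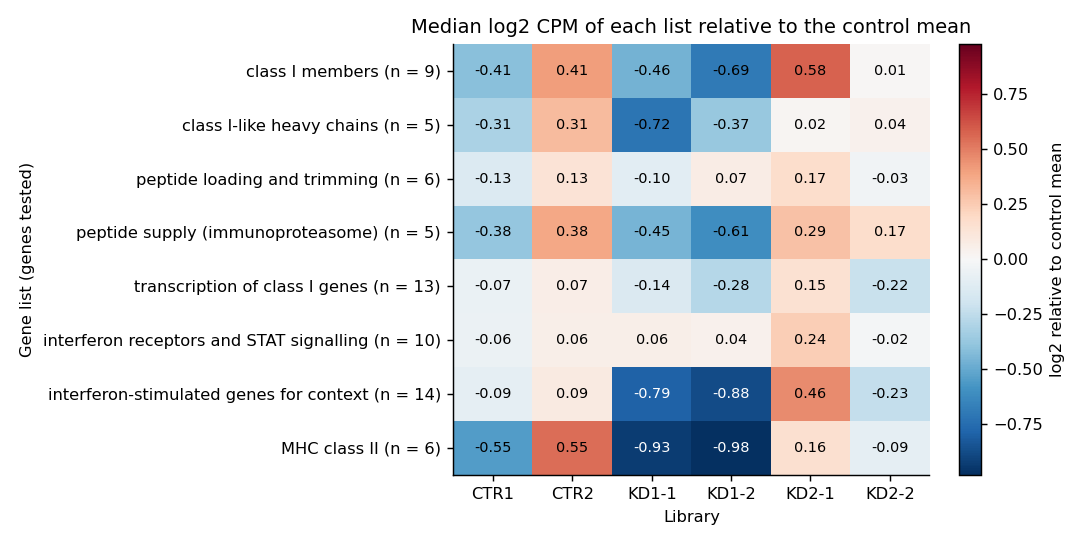
Median over each gene list of log2 CPM relative to the mean of the controls (colour and printed value), with lists as rows and libraries as columns. The medians are positive in CTR2 and KD2-1 and negative in CTR1, KD1-1 and KD1-2 for 6 of the 8 lists, the loading and interferon receptor lists being the exceptions. CTR1 and CTR2 mirror each other by construction, since values are relative to their mean. Medians of the class I genes run from -0.69 to 0.58.

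The other genes of the MHC region of chromosome 6 moved less than the 9, in the same direction. Between the outermost of the class I genes (29690552 to 33282164, GRCh37) 120 genes were tested, of which 99 are neither among the 9 genes nor in the pathway list. KD2-1 and CTR2 were the 2 highest libraries for 14 of these 99 (14.1%, against 9.94% of all genes). Between the shRNAs 71 of the 99 were higher under sh-MIR100HG-2 (49.0% of all genes). Their median difference between CTR2 and CTR1 was 0.23, and their median between the shRNAs was 0.25, against 0.81 and 0.77 for the 9 class I genes. Over all genes tested these medians were -0.01 and -0.01.

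The transcripts of interferons themselves were looked up after the values above had been seen. Of 21 interferon genes in the table, 18 had 0 counts in 6 of 6 libraries, which allows up to 3 counts per library (counting error only). IFNL1, a type III interferon, had 418 counts (CTR1) and 318 (CTR2) with sh-TRC, 131 (KD1-1) and 109 (KD1-2) with sh-MIR100HG-1, and 396 (KD2-1) and 214 (KD2-2) with sh-MIR100HG-2, or 7.78, 5.40, 1.97, 2.57, 8.73 and 4.27 CPM. It was lowest in the sh-MIR100HG-1 libraries, and CTR1 was above CTR2, unlike in the class I genes. IFNL2 had 28, 63, 10, 22, 62 and 51 counts and IFNL3 had 43, 54, 9, 14, 54 and 48 in the same order, and their near-identical sequences make the split between them uncertain. Whether these levels have a part in those of the class I genes was not tested.

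Finally, the genes outside the 9 whose levels ran most like theirs were listed, by Pearson correlation over the 6 libraries with the mean of the 9 centred log2 levels, among genes of at least 1 CPM on average. Among the 10 closest were AZIN1, BACE2, RAB5C, AQP3, CTSB, TIMP1, PIGV, ZNF32 and GRN, with r between 0.989 and 0.995 (n = 6). Of the 12548 genes compared, 384 (3.06%) had r above 0.9. TIMP1, an inhibitor of metalloproteinases, was at 390.2 CPM (CTR1) and 1037 (CTR2) with sh-TRC, 333 (KD1-1) and 309 (KD1-2) with sh-MIR100HG-1, and 951 (KD2-1) and 566 (KD2-2) with sh-MIR100HG-2. AQP3, a water and glycerol channel, was at 9.46 CPM (CTR1) and 27.2 (CTR2) with sh-TRC, 8.55 (KD1-1) and 7.18 (KD1-2) with sh-MIR100HG-1, and 25.9 (KD2-1) and 16.3 (KD2-2) with sh-MIR100HG-2. CTSB and GRN, a lysosomal protease and progranulin, had the same 2 highest libraries within narrower ranges, 389 to 661 CPM and 263 to 492 CPM.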

How the data were processed

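RNA-seq data of 6 MDA-MB-231 libraries were used. The authors deposited raw counts per gene, whole numbers whose totals differ between libraries. By the study's methods, reads were mapped to GRCh37 with STAR, with the GENCODE genes of that build as guide, and counted over exons with FeatureCounts. The version of STAR given by the submitters' processing notes is 2.5.2a, and the methods name another. Strandedness and the handling of reads with several matches are not given in the sources used here. Exon positions and lengths come from the deposited table.

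Genes with under 5 counts in at least 3 of 6 libraries were removed, as the methods describe (12373 genes), which left 15372. Symbols were matched for 26966 of 27745 identifiers, and 0 rows named no gene. Normalization was by TMM in edgeR 4.0.16 (R 4.3.3). All groups entered the same quasi-likelihood model with 3 residual and 5.37 prior degrees of freedom and a common biological coefficient of variation of 27.8%. Benjamini-Hochberg adjustment was made over all genes tested, with 0.05 as threshold. The fold limit that the study set beside it (a log2FC of 2 in size) was met by 0 of the 9 genes and 0 genes in all together with that threshold, in the quasi-likelihood fit used here. The study, in contrast, reports cancer-related genes past both limits between its MIR100HG shRNA groups and controls. It names edgeR's glmLRT, the likelihood ratio test, while calling it quasi-likelihood, so its fit may differ from this one. A pseudocount of 0.125 CPM was used for log2 values. Depth of 43804736 to 64588388 counts per library leaves little counting error for these genes, the lowest count among the 9 being 509. DESeq2 1.42.0, edgeR's likelihood ratio test, other scalings, no filter, a replicate block and leaving out each library were alternatives. Promoters were searched with Python 3.11.15.

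The 9 genes, the pathway list and the tests were chosen with earlier results of these data known. Named were the 9 genes, MIR100HG, the pathway genes at an unadjusted p under 0.05 in any comparison or with the largest difference of their role for both shRNAs, and the 10 genes most like the 9. Other pathway genes named beside these, the interferon genes and the libraries' order were chosen after values were seen. Replicate numbers were not used to pair the libraries: the labels name no shared batch, and deviations of same-numbered libraries correlated at 0.50 between the shRNA groups but at -0.21 and 0.02 with sh-TRC. Some genes that the rule names are not reported here.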

Additional observations from a re-analysis of the deposited data

Results flagged for a closer look

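For 5 genes the shRNAs lay on different sides of the control mean in each of their libraries: both sh-MIR100HG-1 libraries were below it and both sh-MIR100HG-2 libraries above it. The share of all genes that meet this rule was not counted, so whether 5 of 9 is unusual is not known. Between the shRNAs the log2FC, positive where sh-MIR100HG-2 was higher, was 1.99 for HLA-F, 1.14 for HLA-C, 1.04 for TAP1, 0.77 for TAPBP and 0.50 for NLRC5. The difference itself, tested by edgeR's quasi-likelihood test, did not pass the adjustment over all genes for any of the 5 (adjusted p between 0.509 and 0.551). The control mean lies between CTR1 and CTR2, which differ by 0.53 (NLRC5) to 1.73 (HLA-F) on the log2 scale, and for each of the 5 genes CTR2 was above KD2-2. No library stood apart from the other knockdown libraries for any of the 9 genes by Dixon's test at its 95% critical value.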

How the results depend on the processing

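Without the filter on low counts, 3 of the 9 genes (HLA-B, HLA-C and HLA-F) were called under sh-MIR100HG-1 and 4 (with TAP1) between the shRNAs, among 227 and 679 genes in all, and DESeq2 called 1, HLA-F, between the shRNAs; other scalings and fits called 0. The pathway list then had 6, 13, 0 and 13 genes called without the filter in the order of the report, and 0, 2, 0 and 3 by either the likelihood ratio test or DESeq2. All calls over all genes rose from 0 to 392, 227, 517 and 679 without the filter, to 109, 34, 121 and 91 by the likelihood ratio test and to 130, 66, 167 and 103 by DESeq2. A replicate block, checked although the numbers were not taken to pair the libraries, gave medians of -0.28, -0.67, 0.29 and 0.78 with 0 calls. A block with crossed control numbers, added after seeing the data, gave -0.24, -0.60, 0.31 and 0.76 with 0 calls. With the crossed block, genes at an unadjusted p under 0.05 went from 3 to 5 under sh-MIR100HG-1 and from 5 to 7 between the shRNAs. The share of all genes at that level was not counted for the crossed block. Leaving out a library moved the medians between -0.56 and 0.33, -0.99 and -0.18, -0.15 and 0.82, and 0.61 and 1.04, and called 0 of the 9 throughout. Signs turned without CTR2 for both shRNAs in HLA-B (-1.10 to 0.57), HLA-C (-0.83 to 0.41), HLA-E (-0.63 to 0.18), HLA-F (-1.04 to 0.70), B2M (-0.43 to 0.14), TAP1 (-0.56 to 0.33), TAPBP (-0.27 to 0.43, for it without CTR1 or KD2-1) and NLRC5 (-0.36 to 0.17), and for TAPBP under sh-MIR100HG-1 (-0.66 to 0.044). Under sh-MIR100HG-2 they turned without CTR1 or KD2-1 in HLA-B (-0.33 to 1.34), HLA-C (-0.26 to 0.98), HLA-E (-0.34 to 0.54), HLA-F (-0.041 to 1.70), B2M (-0.29 to 0.41), TAP1 (-0.035 to 0.85) and NLRC5 (-0.10 to 0.43), and in TAP2 (-0.46 to 0.25) without CTR2 or KD2-2. Between the shRNAs TAP2 (-0.036 to 0.68) turned without KD2-1. The ratio of B2M to HLA-B plus HLA-C ran from -0.37 to 0.57 and that of TAP1 to TAP2 from -0.14 to 0.39. The causes were not tested. With counts of 509 or more for each of the 9 genes in each library, counting error is small beside the spread between CTR1 and CTR2.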
